A study of Mus musculus with 12 samples.

Results

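A total of 648 distal chromatin peaks were less accessible in every one of 6 Pbrm1-/- libraries than in any of 6 Pbrm1+/+ libraries of mouse germinal center B cells. They were chosen from the deposited counts by a rule on level. The rule took autosomal peaks whose midpoint lay more than 1 kb from both ends of every protein-coding RefSeq gene and whose mean over 12 libraries was at least 2 CPM (counts scaled to 1e6 per library). Among these it kept the peaks whose highest Pbrm1-/- CPM was below the lowest Pbrm1+/+ CPM, with a mean at least 1.4-fold lower in Pbrm1-/-. The members, as these peaks are called here, were 648 of 45432 peaks that met the criteria of position and level, called eligible here (1.43%), out of 68689 peaks of 501 bp in the whole table. The same rule turned round, for peaks higher in every Pbrm1-/- library, found 299 peaks (0.658%). Applied to peaks within 1 kb of a gene end, it found 825 of 15360 peaks (5.37%).

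The assay was Omni-ATAC-seq, where Tn5 transposase cuts and tags open DNA. It was run on germinal center B cells sorted from the spleens of C57BL/6 mice aged 8 to 10 weeks. The groups were Pbrm1-/- (HOMO) CB, Pbrm1-/- CC, Pbrm1+/+ (WT) CB and Pbrm1+/+ CC, with 3 libraries each and no treatment named. The labels do not spell out CB and CC, and they do not say whether each library came from its own mouse, so p-values measure the spread between these libraries, which may be technical. The count columns carry the name Pbrm1AID, which is not explained, so how the allele was made and in which cells it is absent are not known here.

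Pbrm1 encodes a bromodomain subunit of PBAF, a form of the SWI/SNF remodeler that moves nucleosomes and helps to keep regulatory DNA open. Distal open sites are mostly enhancers, which bind transcription factors and act on promoters over a distance, while a smaller share are insulators or internal and unannotated promoters. In the germinal center, B cells pass between a dark zone, where they divide and mutate their antibody genes, and a light zone, where they are selected by antigen and T cell help.

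Some of the members sat at or close to annotated starts of transcription, most of them inside genes. The whole of the start window defined next lay inside the peak in 28 of these members, and the shortest overlap was 12 bp. Of the 648 members, 68 overlapped a RefSeq start window, the stretch from 250 bases before to 50 bases after a start that RefSeq gives for a gene, although all lay over 1 kb from the ends of every protein-coding gene span. In 54 of them the window belonged to the protein-coding gene in whose span the peak lay, so these are starts inside the full span of the gene, and in 14 it belonged to noncoding genes. The 6 windows printed here are those that lay whole inside a member with the largest fold between the genotypes, 1 per gene, to show how much they vary in CpG content. They are RefSeq sequences of GRCm38.p6 (mm10), read 5′ to 3′ on the strand of the gene, with CpG dinucleotides in capitals. The windows are Myo7a at chr7:98109199-98109498 on the minus strand, and on the plus strand Frmd4a at chr2:4559504-4559803, Pfkm at chr15:98108221-98108520, Meis3 at chr7:16175145-16175444, the lncRNA 2900005J15Rik inside Prkag2 at chr5:25100725-25101024, and Tyro3 at chr2:119799264-119799563.
Myo7a: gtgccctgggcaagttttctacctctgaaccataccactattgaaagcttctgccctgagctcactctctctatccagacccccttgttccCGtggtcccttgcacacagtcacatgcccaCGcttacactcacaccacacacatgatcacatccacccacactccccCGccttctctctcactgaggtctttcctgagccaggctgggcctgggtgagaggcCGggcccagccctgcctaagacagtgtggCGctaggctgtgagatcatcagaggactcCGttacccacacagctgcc
Frmd4a: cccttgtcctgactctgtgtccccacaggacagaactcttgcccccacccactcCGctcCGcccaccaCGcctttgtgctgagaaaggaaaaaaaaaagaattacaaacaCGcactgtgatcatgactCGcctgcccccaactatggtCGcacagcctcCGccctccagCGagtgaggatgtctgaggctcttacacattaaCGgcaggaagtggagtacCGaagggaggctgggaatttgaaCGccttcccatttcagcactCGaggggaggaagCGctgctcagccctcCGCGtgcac
Pfkm: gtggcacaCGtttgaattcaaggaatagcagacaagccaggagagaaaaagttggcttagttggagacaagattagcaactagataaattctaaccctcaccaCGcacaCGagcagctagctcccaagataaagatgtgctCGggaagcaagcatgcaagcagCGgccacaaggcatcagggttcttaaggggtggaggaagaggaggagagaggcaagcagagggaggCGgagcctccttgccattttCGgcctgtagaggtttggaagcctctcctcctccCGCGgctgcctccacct
Meis3: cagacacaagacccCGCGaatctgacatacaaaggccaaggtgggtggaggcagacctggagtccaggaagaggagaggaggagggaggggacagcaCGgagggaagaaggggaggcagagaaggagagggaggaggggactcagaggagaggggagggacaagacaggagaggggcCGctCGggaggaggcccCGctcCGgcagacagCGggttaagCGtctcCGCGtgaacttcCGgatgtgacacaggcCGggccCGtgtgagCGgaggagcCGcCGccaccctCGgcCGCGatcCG
2900005J15Rik: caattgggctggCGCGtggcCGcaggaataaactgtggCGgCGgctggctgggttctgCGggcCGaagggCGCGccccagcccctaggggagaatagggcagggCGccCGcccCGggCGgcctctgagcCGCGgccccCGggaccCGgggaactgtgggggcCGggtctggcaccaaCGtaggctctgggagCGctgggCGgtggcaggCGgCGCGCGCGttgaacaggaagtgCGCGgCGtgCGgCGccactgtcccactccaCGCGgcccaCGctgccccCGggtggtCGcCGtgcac
Tyro3: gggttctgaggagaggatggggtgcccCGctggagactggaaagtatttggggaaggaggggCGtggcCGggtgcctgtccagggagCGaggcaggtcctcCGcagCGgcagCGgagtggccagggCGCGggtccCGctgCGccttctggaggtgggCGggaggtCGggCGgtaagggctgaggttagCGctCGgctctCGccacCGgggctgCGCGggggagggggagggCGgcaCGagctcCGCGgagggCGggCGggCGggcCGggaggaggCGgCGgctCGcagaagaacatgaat
Read together, the 6 windows ran from 6 CpG in Myo7a, 9 in Pfkm and 15 in Frmd4a to 21 in Meis3, 31 in Tyro3 and 37 in 2900005J15Rik. Their GC content ran from 53.7% in Pfkm to 75.7% in 2900005J15Rik. The set therefore held both CpG-poor and CpG-rich starts.

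All libraries showed open chromatin at germinal center genes. Gene-end peaks were present for 7 of 7 germinal center markers, whose summed CPM was 239 to 260 in HOMO and 221 to 243 in WT libraries, and for 5 of 5 B lineage markers, with 205 to 225 CPM in HOMO and 195 to 210 CPM in WT. Of the germinal center markers, Mybl1 alone was higher in every HOMO library, with 49.0 to 61.8 CPM in HOMO and 36.9 to 45.2 CPM in WT. No gene-end peak lay at Cd3e, Cd8a, Bcl11b, Csf1r, Lyz2, Itgam, Ncr1, Klrb1c or Gata1. Of 4 T cell markers only Cd4 had one, with 2.4 to 5.75 CPM in HOMO and 6.68 to 7.69 CPM in WT libraries. Of 2 erythroid markers only Klf1 had one, with 5.75 to 9.38 CPM in HOMO and 9.01 to 14.3 CPM in WT. Of 4 myeloid markers only Cebpa had one, with 10.7 to 14.8 CPM in HOMO and 10.1 to 13.8 CPM in WT. The part of these peaks in the results was not tested, and fewer cells of a type and lower accessibility per cell cannot be told apart in bulk libraries. The shallowest library was HOMO CC 1 with 6431354 counts and the deepest HOMO CB 3 with 45590454, and 2 CPM equals about 12.9 counts in the shallowest library. A peak at Xist stood at 0.453 CPM in WT CB 2 and 0.813 CPM in WT CC 2, against 9.02 to 15.4 CPM in HOMO libraries and 4.91 to 16.7 CPM in the other WT libraries. Without both WT libraries numbered 2 the rule found 908 peaks, and later counts are given without them where they change.

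Members were peaks of middling size. Their mean over all libraries had a median of 7.25 CPM and a range of 2.02 to 27.9 CPM, while all 45432 peaks had a median of 7.14 CPM and reached 137 CPM. None of 3341 peaks with a mean of at least 32 CPM was a member, and 61 of 7222 peaks at 16 to 32 CPM were (0.845%). The share was highest at 8 to 16 CPM (222 of 10271 peaks, 2.16%) and at 4 to 8 CPM (247 of 12194 peaks, 2.03%).

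The difference that chose the members was moderate for most of them. The mean WT CPM divided by the mean HOMO CPM had a median of 1.66 and quartiles of 1.52 and 1.88, and 10% of members exceeded 2.19. The gap itself was narrow, since the lowest WT library stood a median of 1.12-fold above the highest HOMO library. By library, the median CPM over members was 5.47, 5.04 and 5.14 in HOMO CB and 5.68, 5.09 and 5.30 in HOMO CC, against 9.36, 8.61 and 8.58 in WT CB and 9.33, 9.07 and 9.01 in WT CC. Over the other distal peaks it was 6.90 to 7.62 CPM in HOMO and 6.36 to 7.70 CPM in WT libraries, which overlapped. Members held 0.399% to 0.454% of each HOMO library's counts and 0.672% to 0.720% of each WT library's counts. The highest HOMO value belonged to HOMO CC 1, the shallowest library, in 237 members and to HOMO CB 1 in 146. When both were left out, the rule found 1682 peaks, and with HOMO CC 1 alone left out it found 1113.

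**Figure D1:**
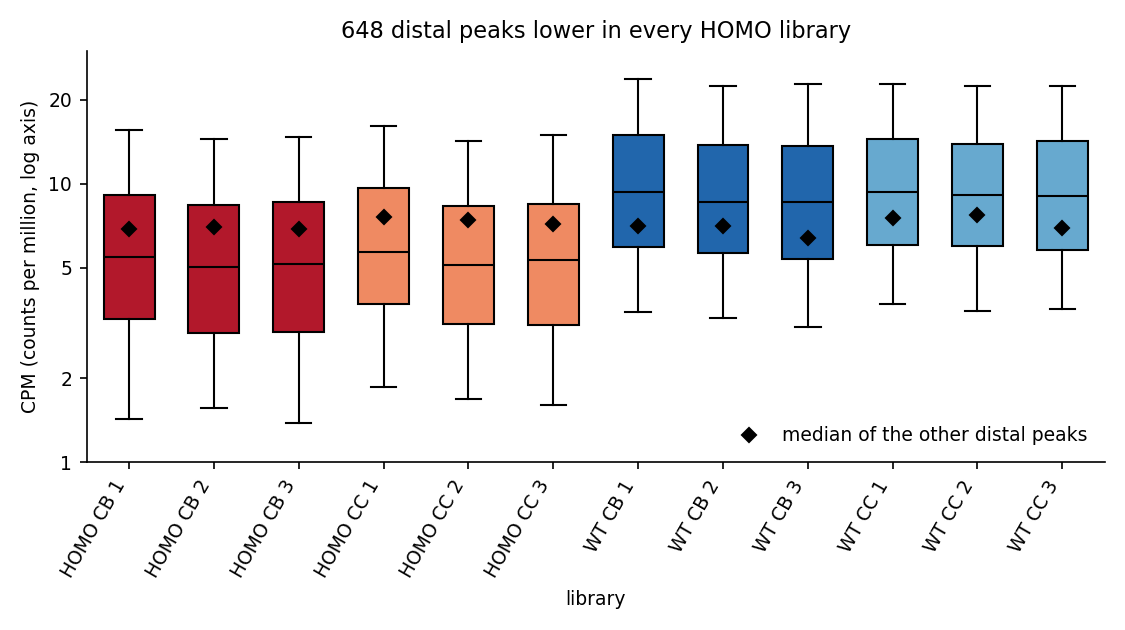
CPM of the 648 members in each of 12 libraries on a log axis; boxes give the median and quartiles, whiskers the 5th and 95th percentiles, and diamonds the median of the other distal peaks. Member medians lie at 5.04 to 5.68 CPM in HOMO and at 8.58 to 9.36 CPM in WT libraries, which is the difference that the rule chose, while the diamonds of both genotypes overlap.

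Because the rule used these values, the fits of HOMO against WT are a description. By edgeR's quasi-likelihood test with Benjamini-Hochberg adjustment over all peaks, 473 members were called lower in HOMO CB (percent called lower 3.85 among all peaks and 2.46 among eligible peaks) and 340 in HOMO CC (2.17 and 1.23). None was called higher, where 0.779 percent of all peaks were in CB and 0.578 percent in CC (0.997 and 0.755 among eligible peaks). Median log2 fold changes of members were -0.76 in CB and -0.72 in CC. The CC count fell to 8 without HOMO CC 2, where 0.016% of all peaks were called lower, and to 79 without both WT libraries numbered 2, where 0.355% were. The CB count fell to 95 without HOMO CB 2, where 0.445% of all peaks were called lower. When the rule was run on the CB libraries alone it found 2138 peaks, and these could be read in the CC libraries, which had not chosen them. Of the 2138, 2063 had a CC log2 fold change below 0, with a median of -0.52, 419 were called lower in CC (19.6%) and 0 were called higher, and in 1111 (52%) the HOMO CC libraries all lay below the WT CC libraries. Among all eligible peaks, 41.1% lay below 0 in CC and the HOMO CC libraries lay below the WT CC libraries in 8.63%. Chosen by CC and read in CB, 1951 of 2052 lay below 0, with a median of -0.59, and 655 were called lower (31.9%). Among all eligible peaks 43.7% lay below 0 in CB. CB and CC libraries of one genotype and number deviated from their group means together (Pearson's r across peaks of 0.25 to 0.58 in 6 pairs), so the readings of both populations are not independent.

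The largest differences lay near Pbrm1 itself on chromosome 14. Within 6 Mb of the gene, 27 of 345 eligible peaks were members (7.83%), against 19 of 1419 on the rest of chromosome 14 (1.34%) and 1.38% on the other chromosomes, where single chromosomes ran from 1.03% to 1.78%. The other direction was also frequent there. The interval held 9 of the 299 peaks higher in every HOMO library (3.01%), against 0.710% of the eligible peaks that were not members. The median fold was 2.17 in the 27 and 1.66 in the 621 members elsewhere, and 9 of the 27 exceeded 3-fold, against 5 of the 621. A distal peak inside 3425401B19Rik (chr14:32694296-32694796) had 0.521, 0.431 and 0.395 CPM in HOMO CB and 0, 0.374 and 0.543 CPM in HOMO CC, against 6.24, 6.8 and 4.49 CPM in WT CB and 4.1, 4.44 and 4.47 CPM in WT CC. Inside Colq, which encodes the collagen tail that anchors acetylcholinesterase, the peak at chr14:31535661-31536161 had 1.17, 0.862 and 0.395 CPM in HOMO CB and 1.09, 0.486 and 0.569 CPM in HOMO CC, against 5.67, 3.51 and 5.95 CPM in WT CB and 3.14, 3.75 and 4.87 CPM in WT CC. Both were at or below 1.17 CPM in every HOMO library, with means of 0.377 and 0.762 CPM, and at 3.14 CPM or more in every WT library. At 4571 bp from Ccser2 (chr14:36870115-36870615) the values were 0.651, 0.835 and 4.1 CPM in HOMO CB and 2.33, 0.823 and 2.38 CPM in HOMO CC, against 12, 11.1 and 10.7 CPM in WT CB and 10.2, 10.8 and 7.42 CPM in WT CC. HOMO CB 3 stood above the other HOMO libraries there and still below all WT libraries. Inside Wdfy4, which in mouse dendritic cells serves cross-presentation, lay the member with the highest WT level (chr14:33189744-33190244), with 9.64, 12.3 and 14.2 CPM in HOMO CB and 12.8, 11.8 and 13.5 CPM in HOMO CC, against 46.3, 40.1 and 46.3 CPM in WT CB and 38.2, 34.3 and 40.3 CPM in WT CC. The highest HOMO library there was at 14.2 CPM and the lowest WT library at 34.3 CPM. The sources used here do not say on which chromosome stock the allele was made, so differences carried by the chromosome around Pbrm1 and the loss of Pbrm1 cannot be told apart in this interval.

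Elsewhere in the genome the largest fold, WT over HOMO, was 3.31. The 10 with the largest folds lay near genes of varied function. At Nrarp, a feedback inhibitor of Notch signalling, the peak 12672 bp from the gene (chr2:25167836-25168336) had 1.3, 1.37 and 1.32 CPM in HOMO CB and 2.18, 0.898 and 0.828 CPM in HOMO CC, against 4.85, 3.74 and 3.45 CPM in WT CB and 4.99, 5.13 and 3.98 CPM in WT CC. Near Dhrs2, which encodes a short-chain dehydrogenase, the peak at chr14:55194192-55194692 had 5.34, 1.91 and 1.73 CPM in HOMO CB and 6.06, 3.97 and 2.54 CPM in HOMO CC, against 9.65, 9.06 and 7.03 CPM in WT CB and 14.5, 17.6 and 11.4 CPM in WT CC. WT CC libraries were higher than WT CB libraries in that peak, and HOMO libraries spread widely. Near Fpr2, a receptor for formylated peptides, the peak at chr17:17909988-17910488 had 5.21, 3.39 and 3.55 CPM in HOMO CB and 9.95, 5.39 and 4.14 CPM in HOMO CC, against 17.2, 14.4 and 11.9 CPM in WT CB and 22.1, 17 and 15.1 CPM in WT CC. Within Pigz, a mannosyltransferase of glycolipid anchors (chr16:31935173-31935673), the peak had 2.86, 2.24 and 2.06 CPM in HOMO CB and 3.27, 3.29 and 2.2 CPM in HOMO CC, against 9.41, 7.14 and 5.48 CPM in WT CB and 10.5, 8.95 and 7.59 CPM in WT CC. HOMO CC 1 was the highest HOMO library in the peaks near Nrarp, Dhrs2 and Fpr2, and in Pigz the HOMO libraries lay close together.

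The other 6 of the 10 follow. Inside Epb41l4b, a FERM-domain protein (chr4:57039081-57039581), the values were 0.521, 1.43 and 1.54 CPM in HOMO CB and 2.33, 1.87 and 2.04 CPM in HOMO CC, against 4.51, 4.08 and 4.56 CPM in WT CB and 5.07, 5.32 and 5.7 CPM in WT CC. In Ccrl2, an atypical chemokine receptor, the peak 1212 bp from a gene end (chr9:111056056-111056556) had 1.56, 1.54 and 2.15 CPM in HOMO CB and 1.87, 2.88 and 1.86 CPM in HOMO CC, against 5.91, 4.99 and 4.4 CPM in WT CB and 6.67, 6.38 and 6.73 CPM in WT CC. HOMO libraries of both peaks stayed below 3 CPM. Close to Pmaip1, which encodes the pro-apoptotic BH3-only protein NOXA, the peak on chromosome 18 had 1.17, 1.19 and 1.51 CPM in HOMO CB and 1.24, 1.87 and 1.47 CPM in HOMO CC, against 4.66, 3.4 and 3.16 CPM in WT CB and 3.86, 3.5 and 5.6 CPM in WT CC. For Hsf2bp, a factor of meiotic recombination (chr17:31995911-31996411), the peak had 1.56, 1.56 and 0.658 CPM in HOMO CB and 1.24, 1.87 and 1.73 CPM in HOMO CC, against 4.32, 2.83 and 2.91 CPM in WT CB and 6.03, 4.69 and 3.88 CPM in WT CC. Neither reached 2 CPM in any HOMO library. At Epb41l1, which encodes a protein 4.1 of the membrane skeleton, the peak overlapped an internal start (chr2:156420922-156421422) and had 0.651, 1.72 and 1.23 CPM in HOMO CB and 2.33, 1.91 and 2.1 CPM in HOMO CC, against 4.27, 3.4 and 5.03 CPM in WT CB and 5.39, 4.82 and 4.67 CPM in WT CC. Finally, 42238 bp from Vrk1, a kinase of chromatin proteins (chr12:105967651-105968151), the values were 4.43, 1.62 and 2.5 CPM in HOMO CB and 2.8, 1.57 and 1.58 CPM in HOMO CC, against 7.01, 7.36 and 7.22 CPM in WT CB and 5.95, 6.19 and 5.9 CPM in WT CC. HOMO CB 1 was the highest HOMO library near Vrk1 and the lowest at Epb41l4b and Epb41l1, where its values rest on few counts.

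**Figure D2:**
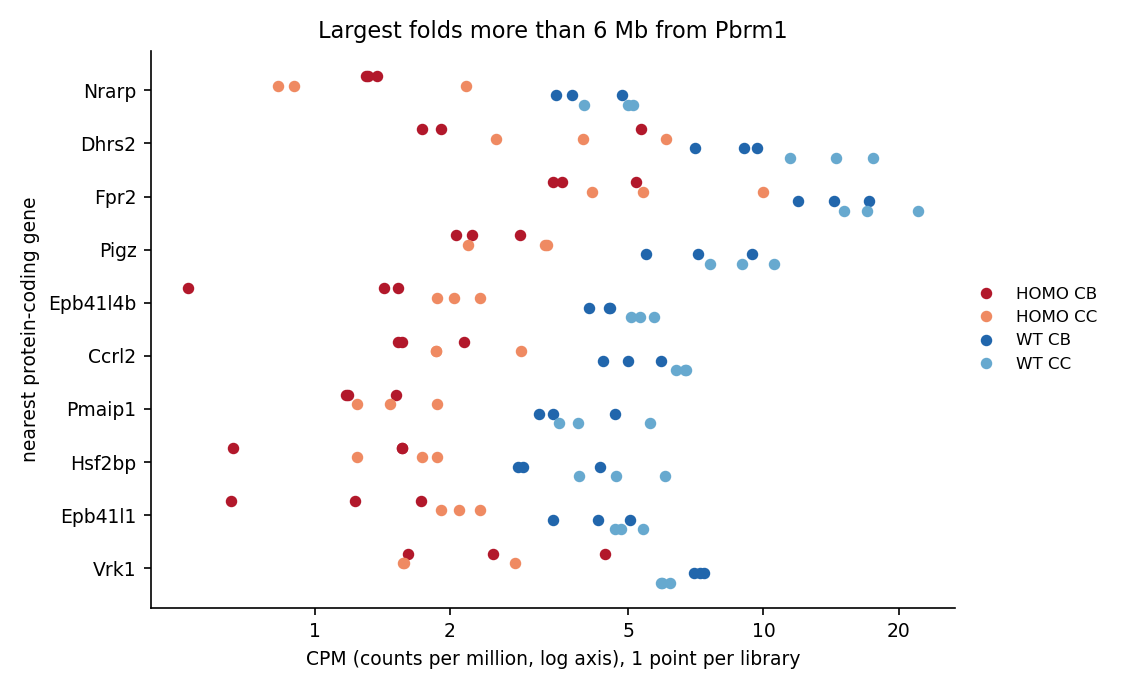
CPM in each of 12 libraries on a log axis, 1 point per library, for the 10 members with the largest folds more than 6 Mb from Pbrm1, named by their nearest protein-coding gene. In each row all 6 HOMO points lie left of all 6 WT points, as the rule demands, and the fold runs from 3.31 at Nrarp to 2.73 at Vrk1.

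The members with the highest WT levels outside that interval had small folds. In Cabin1, which encodes an inhibitor of calcineurin, the peak at chr10:75667561-75668061 had 27.9, 20.7 and 18.2 CPM in HOMO CB and 21, 22.6 and 20.1 CPM in HOMO CC, against 36.4, 33.8 and 30.2 CPM in WT CB and 39.7, 34.3 and 30.5 CPM in WT CC. Near Hilpda, a lipid droplet protein, the values were 20.2, 25.9 and 21.6 CPM in HOMO CB and 21.1, 24.5 and 21.2 CPM in HOMO CC, against 39.1, 34.3 and 31.4 CPM in WT CB and 29.4, 29.7 and 33.9 CPM in WT CC. Beside Heatr5a the peak had 20.7, 23.1 and 20.1 CPM in HOMO CB and 23.6, 20.8 and 21.7 CPM in HOMO CC, against 26.5, 34.3 and 33.2 CPM in WT CB and 27.3, 30.9 and 35.3 CPM in WT CC. The highest HOMO and the lowest WT library lay close in these peaks, with folds of 1.57, 1.47 and 1.44. In Itprid2 the peak had 26.2, 20.6 and 18 CPM in HOMO CB and 23.8, 18.7 and 18.6 CPM in HOMO CC, against 35.4, 31.2 and 30.4 CPM in WT CB and 29, 29.7 and 31.8 CPM in WT CC. Its fold was 1.49, and HOMO CB 1 was the highest HOMO library.

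Starts of transcription made up more of the members than of other distal peaks of like level. The share of peaks that overlapped a start window was 10.5% among members (68 of 648, 95% Wilson interval 8.36% to 13.1%), 4.21% among the other eligible peaks (1886 of 44784) and 1.00% among peaks higher in every HOMO library (3 of 299). Read the other way, 21 of 262 start peaks at 4 to 8 CPM were members (8.02%), against 1.89% of peaks without a start window at that level. At 8 to 16 CPM the shares were 9.94% (32 of 322) and 1.91%. At 16 to 32 CPM they were 2.29% and 0.732%, and of 645 start peaks at 32 CPM or more none was a member. Near the ends of lncRNA genes, within 1 kb, lay 9.41% of members and 5.38% of the others. The interval covers counting error only, and no test of enrichment was made.

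Among starts of like level, the members' windows were richer in CpG. A window was called CpG-rich at a GC content of at least 55% and at least 0.65 of the CpG expected from its base composition. At a mean of 4 to 16 CPM, 23 of 53 windows at members were CpG-rich (43.4%, median 18 CpG), against 110 of 531 windows at other distal peaks (20.7%, median 7 CpG). Over all levels the shares were close, at 47.1% (32 of 68) for members and 41.6% for the others, and among all 31396 autosomal windows the share was 28.7%. Put as shares of peaks at 4 to 16 CPM, members were 17.3% of the peaks with a CpG-rich window (23 of 133) and 6.65% of those with another window (30 of 451). Motif letters in these windows were read on both strands. The AP-1 letters TGANTCA stood in 1 of 68 windows at members (1.47%), 6.42% of windows at other distal peaks and 7.84% of all autosomal windows. The ETS letters CCGGAA stood in 19.1%, 20.7% and 15.1%. At a mean of 4 to 16 CPM, the AP-1 letters stood in 1.89% of windows at members and 8.29% at other distal peaks. There the ETS letters stood in 17.0% and 13.6%, the reverse of their order over all levels. The other motifs read are not reported here. A match is a description of the letters in this window only.

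The peaks that hold the 6 printed windows had low to middling levels. The Myo7a peak (chr7:98109000-98109500), in a gene for an unconventional myosin of hair cells, had 4.17, 2.42 and 1.73 CPM in HOMO CB and 3.89, 5.09 and 4.73 CPM in HOMO CC, against 8.21, 9.97 and 7.12 CPM in WT CB and 9.89, 12.3 and 12.2 CPM in WT CC. In Frmd4a, a FERM-domain scaffold protein, the peak had 2.86, 1.16 and 1.45 CPM in HOMO CB and 4.2, 2.17 and 2.25 CPM in HOMO CC, against 5.96, 4.99 and 4.62 CPM in WT CB and 8.85, 6.44 and 5.63 CPM in WT CC. For the internal start of Pfkm, the muscle form of phosphofructokinase, the values were 1.95, 2.26 and 1.62 CPM in HOMO CB and 4.98, 2.99 and 2.56 CPM in HOMO CC, against 7.25, 6.0 and 6.3 CPM in WT CB and 6.84, 5.44 and 5.87 CPM in WT CC. HOMO CC 1 was the highest HOMO library in Frmd4a and Pfkm, and WT CC 2 and 3 were the highest of all in Myo7a. At Meis3, a TALE homeodomain factor, the peak had 10.3, 7.76 and 5.64 CPM in HOMO CB and 11.2, 5.84 and 6.8 CPM in HOMO CC, against 17.9, 15.2 and 14.4 CPM in WT CB and 19.5, 17.8 and 17.3 CPM in WT CC. At 2900005J15Rik inside Prkag2, which encodes a regulatory subunit of AMPK, it had 4.3, 2.77 and 3.05 CPM in HOMO CB and 4.66, 4.34 and 4.99 CPM in HOMO CC, against 7.4, 5.89 and 7.22 CPM in WT CB and 8.69, 9.95 and 9.68 CPM in WT CC. In Tyro3, a receptor tyrosine kinase of the TAM family, it had 7.94, 5.2 and 5.72 CPM in HOMO CB and 6.69, 4.83 and 6.75 CPM in HOMO CC, against 11.3, 9.97 and 13.9 CPM in WT CB and 12.2, 13.8 and 11.4 CPM in WT CC. HOMO CC 1 was again the highest HOMO library at Meis3, HOMO CC 3 at 2900005J15Rik and HOMO CB 1 at Tyro3. Among the other peaks that overlapped start windows was that of Gata3, a T cell transcription factor, with a mean of 7.85 CPM in HOMO and 12.6 CPM in WT libraries. That of Gfi1, a zinc-finger repressor, had 10.8 and 16.8 CPM in HOMO and WT and overlapped only 33 bp of the window. Kmt2d, an enhancer histone methyltransferase, had 10.9 and 16.5 CPM. These 3 were picked after their values were seen.

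A larger share of members than of other distal peaks lay close to gene ends. Of the 648, 138 had their midpoint 1 to 2 kb from the end of a protein-coding gene (21.3%, Wilson interval 18.3% to 24.6%), against 8.83% of the other eligible peaks and 3.68% of peaks higher in every HOMO library. The median distance was 9343.5 bp for members and 14174.5 bp for all eligible peaks. As shares of eligible peaks, members were 3.37% at 1 to 2 kb, 1.71% at 2 to 5 kb and 1.12% at 5 to 10 kb, and 0.945% beyond 50 kb. Without the peaks at start windows the shares were 3.23%, 1.61%, 1.01% and 0.894%, so the higher share near gene ends was also seen without those starts. A protein-coding gene span held 67% of members and 61.4% of the others. At the 1 kb threshold, the members nearest Rb1, Unc13a and Rnf166 lay 1008, 1009 and 1010 bp from a gene end, and the peaks nearest Rps21, Gdf11 and Fzd5 missed it at 999, 997 and 995 bp.

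**Figure D3:**
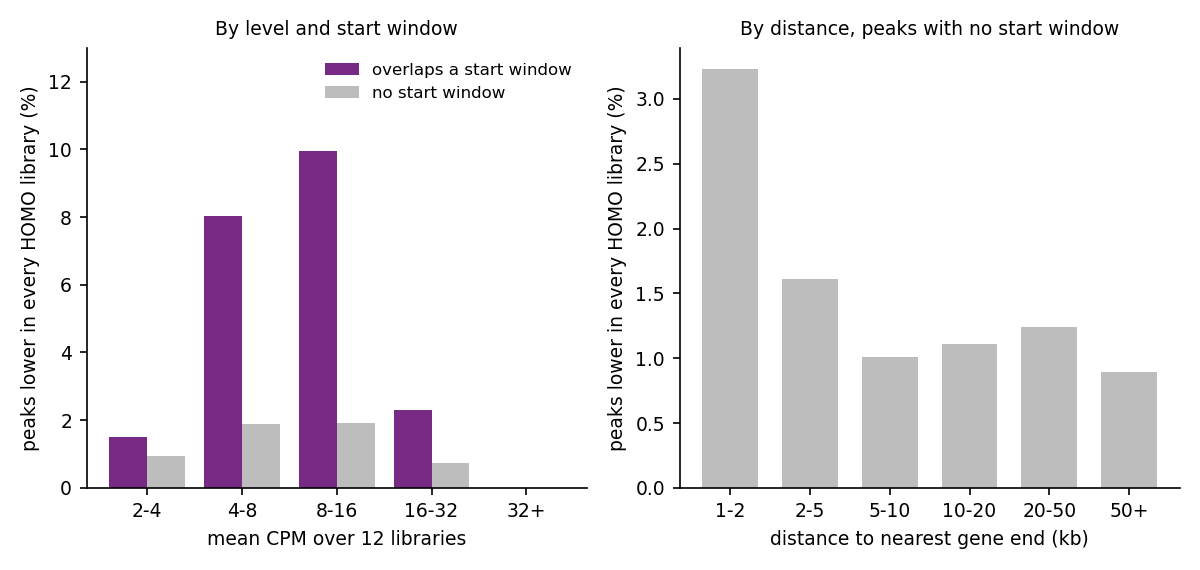
Share of eligible distal peaks that are members, in percent: left by mean CPM for peaks with and without a RefSeq start window, right by distance to the nearest gene end in kb for peaks with no start window. Start peaks reach 8.02% and 9.94% at 4 to 16 CPM, against 1.89% and 1.91% without a start, and the share at 1 to 2 kb (3.23%) is above those at all longer distances (0.894% to 1.61%).

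Peaks beside a member tended to be lower in HOMO too. Among distal peaks that were not members, the 332 within 2 kb of a member had a median log2 fold change, HOMO over WT, of -0.34 in CB and -0.28 in CC. At 2 to 5 kb the medians were -0.14 and -0.10, and at 5 to 20 kb -0.04 and -0.02. At 20 to 50 kb they were 0.02 and 0.03, at 50 to 200 kb 0.04 and 0.05, and beyond 200 kb 0.06 and 0.07. The lower level was thus plainest in close neighbours and came nearer to that of remote peaks with distance. Gene-end peaks within 2 kb of a member (148) had medians of -0.27 and -0.19, against -0.11 and -0.07 beyond 200 kb, and 21 of the 148 met the rule apart from its distance (14.2%), against 5.15% beyond 200 kb. These values come from the same libraries that chose the members and are a description.

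**Figure D4:**
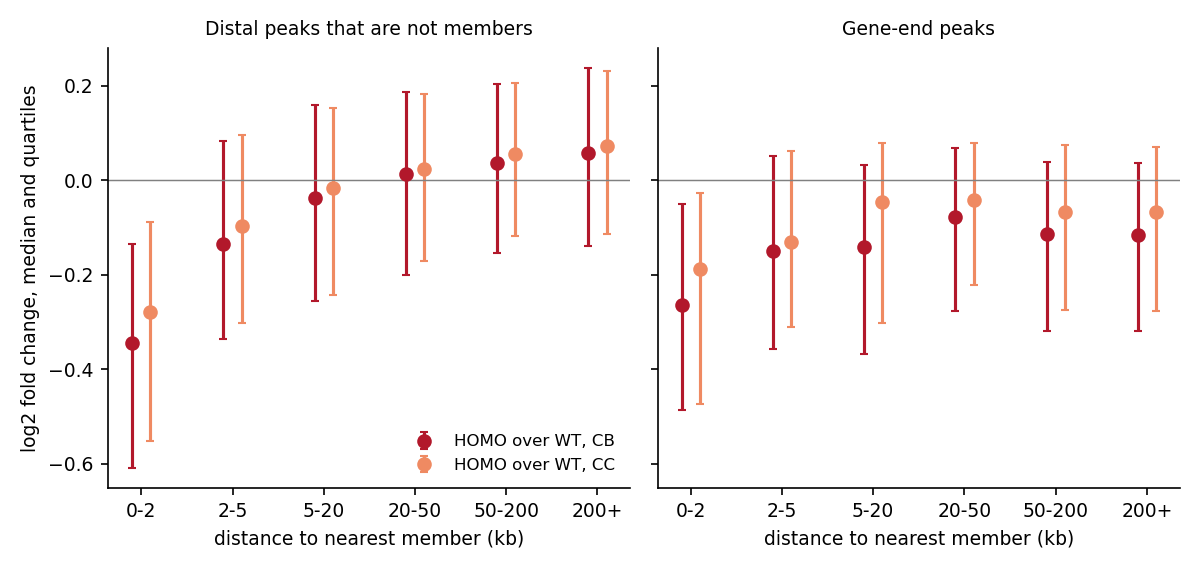
Log2 fold change of HOMO over WT, as median and quartiles, of peaks that are not members by distance in kb to the nearest member, in CB and CC, outside the 6 Mb around Pbrm1. Distal peaks within 2 kb lie below 0 at the median (-0.34 in CB, -0.28 in CC) and those beyond 200 kb just above it (0.06 and 0.07), while gene-end peaks lie below 0 at every distance.

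A minority of the gene ends of the members' nearest genes were called lower as well. A protein-coding gene lay within 50 kb of 612 members, 536 genes in all, of which 57 had at least 2 members. Their gene-end peaks numbered 620, of which 87 were called lower in HOMO CB (14%) and 57 in HOMO CC (9.19%) by edgeR's adjusted p, and 0 were called higher in either. Among all autosomal gene-end peaks, the percent called lower was 9.27 in CB and 5.66 in CC. Calls higher were rare there too, at 41 in CB and 32 in CC of 15681 peaks, so the 0 is not particular to these genes. Genes with a member 1 to 2 kb from an end had 21.1% and 15.0% of 180 gene-end peaks called lower in CB and CC, and genes with a member farther away had 12.1% and 7.37% of 448. The median log2 fold change of the 620 was -0.16 in CB and -0.11 in CC. Without HOMO CC 2 the CC count was 0, and without both WT libraries numbered 2 it was 11, where 0.016% and 0.355% of all peaks were called lower.

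Most members stood alone, and a minority formed small groups. Members within 50 kb of each other formed 69 groups holding 155 of the 648, 14 of them with at least 3 members, and 493 had no other member that close. Some groups were adjoining peaks, such as 3 at Prr36 within 1894 bp and 2 in Cd247 within 1046 bp. How often eligible peaks lie that close was not counted. One of the largest, with 4 members, lay near Ccser2 (chr14:36862308-36870615), where 4 of 5 eligible peaks in 8308 bp were members with folds of 2.04 to 5.59. At Colq (chr14:31531159-31556470) 4 of 5 were members, with folds of 2.14 to 5.88. Both are in the interval around Pbrm1. The largest group elsewhere held 4 of 7 eligible peaks over 81102 bp on chromosome 7 (chr7:4420077-4501178), at the retinol dehydrogenase gene Rdh13, the actin regulator gene Eps8l1 and Ppp1r12c, which encodes a myosin phosphatase subunit. In that group, the strongest peak of Rdh13 had 10.7, 9.18 and 8.51 CPM in HOMO CB and 12.8, 10.6 and 9.55 CPM in HOMO CC, against 18, 16.5 and 13 CPM in WT CB and 23.3, 15.1 and 12.8 CPM in WT CC. In the same group, the peak of Ppp1r12c had 12.9, 9.83 and 10.7 CPM in HOMO CB and 12.9, 11.3 and 11.6 CPM in HOMO CC, against 17, 17.4 and 13.1 CPM in WT CB and 19.5, 16.7 and 16.1 CPM in WT CC. The lowest WT library was WT CC 3 in the first and WT CB 3 in the second, and the folds of the 4 peaks ran from 1.44 to 2.34. By gene, Ccser2 was nearest to 7 members of 11 eligible peaks, Trim2, an E3 ubiquitin ligase, to 6 of 21, and Prr36 to 3 of 3.

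None of the distal peaks in 4 lists of B cell genes was a member. Germinal center identity genes such as Bcl6 and S1pr2 were nearest to 92 eligible peaks, B cell transcription factors such as Pax5 and Ebf1 to 618, B cell receptor signalling genes to 351 and migration and adhesion genes to 165, and 0 of each were members. Together these 4 lists held 1221 peaks at 81 genes, 0 of them members. Of all eligible peaks with a gene within 50 kb, 1.47% were members. The joint 0 follows from the 0 of each list. Lists that held members, such as plasma cell and memory, were left out of it. Over all 13 lists, 13 of 1872 eligible peaks were members (0.694%). At 4 to 16 CPM the counts were 0 of 614 in these 4 lists, against 469 of all 22465 eligible peaks (2.09%). Median log2 fold changes of the 1221 were 0.11 in CB and 0.14 in CC, HOMO over WT, against 0.04 and 0.06 over eligible peaks near a gene, and 6 of them were higher in every HOMO library. CC and CB differed by edgeR's adjusted p in either genotype in 13.3% of the 1221 and in 10.6% of eligible peaks near a gene. Other forms of the rule found 0 to 10 peaks at these genes, the most with CC libraries alone, which found 2052 peaks in all.

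A few members lay near genes of the light zone and of activated B cells. Of 178 eligible peaks of the light zone, costimulation and NF-kB list, 5 were members (2.81%, against 1.47% of eligible peaks near any gene), nearest to Tnfaip3, Nfkb1, Cd80, Cd86 and Rel. The peak 5211 bp from Tnfaip3, which encodes the NF-kB inhibitor A20 (chr10:18995449-18995949), had 13.5, 21 and 23.6 CPM in HOMO CB and 16.3, 19.9 and 24.4 CPM in HOMO CC, against 25.1, 27 and 38.3 CPM in WT CB and 26.1, 26.3 and 37.3 CPM in WT CC. That of Nfkb1, the p50 precursor (chr3:135718264-135718764), had 10.0, 5.04 and 5.37 CPM in HOMO CB and 9.48, 6.81 and 5.87 CPM in HOMO CC, against 11.5, 14.2 and 11.6 CPM in WT CB and 12.9, 12.6 and 11.5 CPM in WT CC. At Tnfaip3 the library numbered 3 was the highest of every group, and at Nfkb1 the HOMO libraries numbered 1 were the highest HOMO libraries. Inside Cd80, a costimulatory ligand of T cells (chr16:38483526-38484026), the peak had 8.2, 7.65 and 8.25 CPM in HOMO CB and 8.4, 7.15 and 7.24 CPM in HOMO CC, against 12.9, 13.4 and 12.1 CPM in WT CB and 11.5, 9.95 and 10.6 CPM in WT CC. Its HOMO libraries spanned only 7.15 to 8.4 CPM, and WT CC libraries were the closest to them. Members near Cd86, the partner ligand of Cd80, and Rel, an NF-kB subunit, had folds of 1.45 and 1.47. By edgeR's adjusted p, 3 peaks of this list were lower and 1 higher in HOMO CB, and 0 were lower and 1 higher in HOMO CC. Among all eligible peaks, 2.46% were called lower and 0.997% higher in CB, and 1.23% and 0.755% in CC. The Tnfaip3 peak was called in neither population. Median log2 fold changes of the 178 peaks were -0.02 in CB and 0.06 in CC, and 1 peak was higher in every HOMO library.

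The interferon, plasma cell and AP-1 lists each held a pair of members. Near Irf1, an interferon-induced transcription factor, there were 2 members among 49 eligible peaks of the interferon list (4.08%). The one 16596 bp from the gene (chr11:53794720-53795220) had 17.1, 14.9 and 13.5 CPM in HOMO CB and 21.9, 18.4 and 15.7 CPM in HOMO CC, against 26.7, 22 and 23.9 CPM in WT CB and 29, 28 and 23.6 CPM in WT CC. Farther away, at 42282 bp (chr11:53820406-53820906), the other had 9.12, 8.73 and 7.02 CPM in HOMO CB and 9.33, 8.98 and 7.17 CPM in HOMO CC, against 14.3, 13.4 and 10.9 CPM in WT CB and 12.9, 14 and 10.5 CPM in WT CC. WT CB 2 and HOMO CC 1 came within 1 CPM of each other in the nearer peak. The plasma cell and memory list had 2 of 169 (1.18%). In Sdc1, which encodes the plasma cell marker CD138 (chr12:8772592-8773092), the peak had 5.99, 2.8 and 4.3 CPM in HOMO CB and 5.13, 3.63 and 3.0 CPM in HOMO CC, against 11, 6.8 and 9.34 CPM in WT CB and 8.12, 7.82 and 9.11 CPM in WT CC. Near Tle3, a Groucho corepressor, it had 2.34, 1.4 and 1.05 CPM in HOMO CB and 2.33, 1.87 and 1.09 CPM in HOMO CC, against 3.31, 3.4 and 2.6 CPM in WT CB and 2.49, 3.32 and 2.92 CPM in WT CC. The Sdc1 peak had the larger fold, at 2.10. In the AP-1 list 2 of 138 were members (1.45%), at Fosl1, which encodes the AP-1 subunit Fra-1 (chr19:5448502-5449002), with 6.51, 4.07 and 5.33 CPM in HOMO CB and 7.46, 3.82 and 4.81 CPM in HOMO CC, against 7.83, 9.74 and 8.64 CPM in WT CB and 10.6, 7.57 and 8.58 CPM in WT CC. The other was near Batf3, a factor of dendritic cell development, with 5.47, 6.36 and 4.3 CPM in HOMO CB and 6.38, 5.61 and 5.49 CPM in HOMO CC, against 9.22, 7.14 and 8.29 CPM in WT CB and 9.73, 6.95 and 9.28 CPM in WT CC. Each of these shares rests on 2 peaks. Peaks of these lists were also called higher in HOMO by edgeR's adjusted p. In the plasma cell and memory list 4 were higher and 2 lower in CB, and 3 higher and 1 lower in CC. The AP-1 list had 3 higher and 2 lower in CB, and 3 higher and 1 lower in CC. Of the interferon list, 0 were higher and 4 lower in CB, and 1 higher and 2 lower in CC. Among all eligible peaks, 0.997% were called higher and 2.46% lower in CB, and 0.755% and 1.23% in CC.

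In the BAF and PBAF list, 1 of 153 eligible peaks was a member (0.654%), inside Dpf1, which encodes a BAF subunit known from neurons (chr7:29309145-29309645). It had 4.3, 2.56 and 2.46 CPM in HOMO CB and 3.42, 3.7 and 3.93 CPM in HOMO CC, against 7.83, 7.36 and 7.44 CPM in WT CB and 8.2, 9.95 and 9.38 CPM in WT CC. Among markers of other cells, 1 of 52 peaks of the myeloid and dendritic list was a member (1.92%), near Fcgr1, the high-affinity IgG receptor, with 4.95, 7.11 and 7.98 CPM in HOMO CB and 8.24, 7.63 and 6.7 CPM in HOMO CC, against 15, 14.2 and 9.84 CPM in WT CB and 12.2, 14.1 and 9.84 CPM in WT CC. None of the 25 T cell, 18 natural killer or 6 erythroid peaks of the fixed lists was. Still, 2 of the 6 erythroid peaks were called lower in HOMO CB and 0 in HOMO CC, where 2.46% and 1.23% of all eligible peaks were. Median log2 fold changes in CB and CC were -0.39 and -0.22 for erythroid and -0.14 and -0.09 for T cell peaks. They were -0.08 and 0.0007 for natural killer and -0.01 and 0.05 for myeloid and dendritic peaks. Eligible peaks near a gene had 0.04 and 0.06. Outside those lists, and picked out after their values were seen, 2 members lay inside Cd247, which encodes the zeta chain of the T cell receptor complex. The first (chr1:165844552-165845052) had 16, 12.1 and 11.6 CPM in HOMO CB and 16, 13.8 and 14.4 CPM in HOMO CC, against 22.9, 19.5 and 23.7 CPM in WT CB and 18.7, 19.9 and 24.5 CPM in WT CC. The second (chr1:165845097-165845597) had 10.0, 8.81 and 8.75 CPM in HOMO CB and 11.2, 9.17 and 6.16 CPM in HOMO CC, against 19.9, 19.6 and 16.6 CPM in WT CB and 16.9, 16.3 and 17.3 CPM in WT CC. These 2 peaks lay side by side within 1046 bp, and their folds were 1.54 and 1.97.

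Accessibility of members differed little between CC and CB, which the rule did not compare directly. In WT, 0 of 648 members were called different by edgeR's adjusted p, where the percent called was 3.35 higher and 2.08 lower in CC among all peaks, and 3.99 and 2.75 among eligible peaks. At an unadjusted p under 0.05 there were 28 (4.32%), against 22.2% of the other eligible peaks. DESeq2 called 1 member higher and 3 lower, where 4.05% and 2.59% of all peaks were. With same-numbered CC and CB libraries as a replicate block, 8 were higher and 22 lower in WT CC, where 10.4% and 11.8% of all peaks were. The demand that the genotypes do not overlap across both populations is harder to meet where CC and CB levels differ, so the low counts are not independent of the choice. In HOMO, 6 members were higher and 3 lower in CC, where the percent called was 4.78 higher and 2.44 lower among all peaks and 5.84 and 3.25 among eligible peaks, and with the replicate block 41 and 27 were, where 12.5% and 9.68% of all peaks were.

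The members higher in HOMO CC than in HOMO CB lay near genes of varied function. The one of smallest p overlapped the start of the lncRNA 2310034G01Rik, 7951 bp from Mfsd13a (chr19:46348676-46349176), and had 8.2, 8.73 and 8.88 CPM in HOMO CB and 13.5, 14.4 and 12.6 CPM in HOMO CC, against 18.2, 18.9 and 20.6 CPM in WT CB and 19.1, 19.7 and 23.4 CPM in WT CC. Its CC to CB log2 fold change in HOMO was 0.61 ± 0.14 (SE, adjusted p = 0.0099 by edgeR), and all HOMO CC libraries were above all HOMO CB libraries. Near Ncoa5, a nuclear receptor coactivator (chr2:165042919-165043419), the peak had 1.17, 1.51 and 1.34 CPM in HOMO CB and 2.8, 2.77 and 2.72 CPM in HOMO CC, against 4.23, 4.65 and 3.96 CPM in WT CB and 5.79, 6.13 and 4.77 CPM in WT CC, a log2 difference in HOMO of 0.97 ± 0.23 (SE, adjusted p = 0.011 by edgeR). At the internal start of Dram1, a p53 target in autophagy (chr10:88356883-88357383), it had 7.42, 5.23 and 5.35 CPM in HOMO CB and 9.64, 8.87 and 9.08 CPM in HOMO CC, against 12, 13.4 and 13.6 CPM in WT CB and 15.4, 16.7 and 15 CPM in WT CC. There the log2 fold change was 0.64 ± 0.16 (SE, adjusted p = 0.018 by edgeR), again with no overlap between HOMO CC and HOMO CB. The others of the 6 were the Myo7a start given above, with 0.91 ± 0.25, Map3k8, a kinase of the ERK pathway, with 0.75 ± 0.21, and Thra, the thyroid hormone receptor alpha, with 0.62 ± 0.17 on the log2 scale.

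The 3 members lower in HOMO CC were of similar kind. In Abhd8, which encodes an abhydrolase-domain protein (chr8:71462738-71463238), the peak had 18.6, 19.8 and 20.4 CPM in HOMO CB and 14.8, 13 and 15.6 CPM in HOMO CC, against 28.6, 26.9 and 25 CPM in WT CB and 25.1, 23.5 and 24 CPM in WT CC, a CC to CB log2 fold change in HOMO of -0.47 ± 0.12 (SE, adjusted p = 0.018 by edgeR). Near Gabrr2, a GABA receptor subunit (chr4:33109915-33110415), it had 1.69, 2.21 and 1.51 CPM in HOMO CB and 0.933, 0.599 and 0.983 CPM in HOMO CC, against 3.84, 3.74 and 3.04 CPM in WT CB and 3.06, 2.38 and 3.55 CPM in WT CC. That difference was -1.15 ± 0.31 on the log2 scale (SE, adjusted p = 0.027 by edgeR), from CPM under 1 in all HOMO CC libraries. In Trim11, an E3 ubiquitin ligase (chr11:58978395-58978895), it had 16.9, 14.5 and 14.6 CPM in HOMO CB and 11, 11.3 and 11.2 CPM in HOMO CC, against 24.5, 21.6 and 21.4 CPM in WT CB and 18.6, 18.3 and 18.6 CPM in WT CC. The log2 fold change was -0.46 ± 0.13 (SE, adjusted p = 0.028 by edgeR), and WT showed -0.36 ± 0.12, with all WT CC libraries below all WT CB libraries. Whether a member fell more in one population was read as the difference of the genotype effects. The rule demanded lower HOMO levels in both populations, which limits this difference in members. With 0 calls among all peaks as well, the result below says nothing particular to members. By edgeR, and likewise by DESeq2, 0 members and 0 of all peaks were called (percent called 0), and by edgeR 12 members had an unadjusted p under 0.05 (1.85%), where 1.17% of eligible peaks did. The median difference, CC minus CB, was 0.06 on the log2 scale in members and 0.02 in all eligible peaks.

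**Figure D5:**
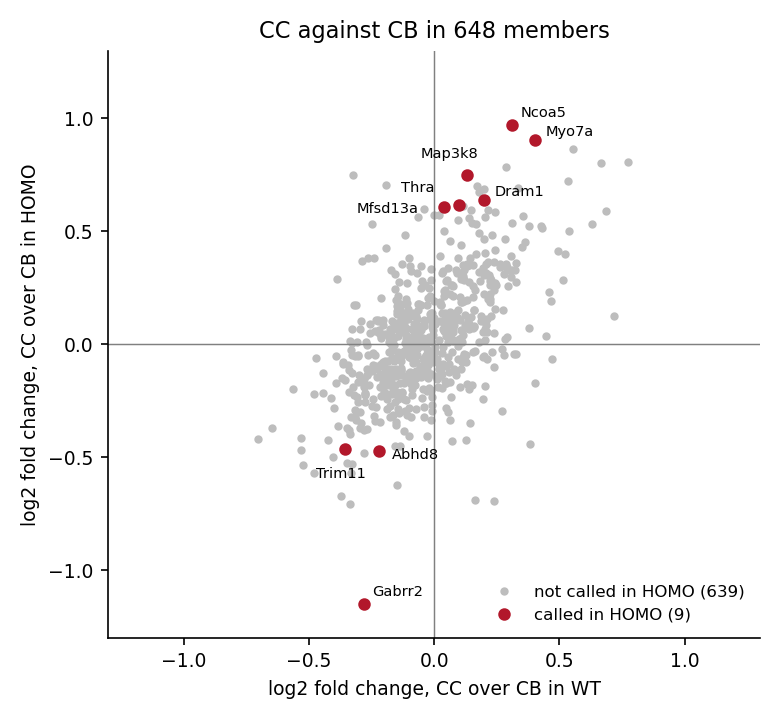
Log2 fold change of CC over CB in HOMO (vertical) against WT (horizontal) for the 648 members, with the 9 called in HOMO in red and named. The 6 called higher lie at 0.61 to 0.97 and the 3 called lower at -0.46 to -1.15 on the vertical axis, and the cloud of the others lies around 0.

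At the other thresholds the rule separated near-equal peaks. Members nearest Dock9, Eprs and Bcas1 were just inside the fold of 1.4, and peaks nearest Sipa1l1, Rbbp8 and Plekhb2 missed it, with folds that round to 1.4 on both sides. Means of 2.02, 2.06 and 2.07 CPM kept the peaks nearest Ociad2, Tnfsf10 and Ndfip1, while 1.99 CPM nearest Tgfbr3 and a value just under 2 CPM nearest Dgkh were below the limit. Without the fold threshold, 885 eligible peaks had all HOMO libraries below all WT libraries, and without the demand for separation 2573 were at least 1.4-fold lower in HOMO at the mean.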

How the data were processed

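The deposited table holds raw read counts per peak for 12 Omni-ATAC-seq libraries, made by the authors on mm10, per the submitters' processing notes, where BWA, deepTools, FastQC and R 4.2.1 are listed with no roles. No peak caller, counting tool, duplicate removal or handling of the Tn5 offset is given in the sources used here. Any of these could change counts of single peaks.

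CPM was each count divided by its column total and multiplied by 1e6, without further scaling. Counts were fitted over all 68689 peaks with edgeR 4.0.16 (TMM factors 0.954 to 1.05, 1 mean per group, robust quasi-likelihood tests, Benjamini-Hochberg adjusted p under 0.05), and DESeq2 1.42.0 was an alternative. The fit was tested on simulated data: for CC against CB in WT it called 24%, 60%, 86% and 96% of peaks changed 1.5-, 2-, 3- and 4-fold. Only a small part of the simulated peaks was changed, in WT CC alone, so these shares need not hold for the data. Replicates differed beyond counting error, with a chi-square per degree of freedom of 2.28 to 7.66. Depth ranged 7.09-fold, so ratios of low peaks are least certain in HOMO CB 1 and HOMO CC 1.

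Groups and replicate numbers came from the labels. Within a genotype, same-numbered CC and CB libraries deviated together (r 0.25 to 0.58 in 6 pairs, against -0.42 to 0.16 in 12 other pairs), so a fit with that replicate block is given beside the CC against CB counts. Across genotypes same-numbered libraries had r of -0.03 to 0.47 (12 pairs) and different-numbered ones -0.37 to 0.24 (24 pairs). Same-numbered libraries of both genotypes were not taken as pairs in the main fit, since not every such pair deviated together. An alternative fit of HOMO against WT took those of a population as a block. It called 562 members lower in CB and 499 in CC, where 6.93% and 4.88% of all peaks were.

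Gene spans and start windows are RefSeq's (GRCm38.p6), and a peak was assigned to the nearest protein-coding span within 50 kb. The members, the 13 gene lists and the naming rule were chosen with earlier results of these data known. Named were the largest folds, the highest WT levels, up to 3 members per list, the members called for CC against CB, the largest groups and the peaks at each threshold. Not every peak that this rule names is reported here. No genome sequence was used, so the planned motif counts were made only in start windows.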

Additional observations from a re-analysis of the deposited data

How the results depend on the processing

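The rule found 281 peaks at a fold of 1.7, 399 over 5 kb from a gene end, 2138 and 2052 with CB or CC libraries alone, 1682 without both HOMO libraries numbered 1, and 661 to 1113 with 1 library left out. Members called lower in HOMO numbered 305 in CB and 79 in CC without both WT libraries numbered 2 (2.05% and 0.355% of all peaks were called lower there). With library total as covariate the CC count was 540 (5.71% of all peaks). With 1 library left out the counts were 95 to 448 in CB (0.445% to 4.56% of all peaks) and 8 to 360 in CC (0.016% to 3.66%). For CC against CB in WT, DESeq2 called 1 higher and 3 lower, where 4.05% and 2.59% of all peaks were. The replicate block called 8 and 22 (10.4% and 11.8% of all peaks) and the covariate 2 and 9 (6.47% and 4.97%). Leaving out 1 library gave 0 to 0 in each direction, where 1.21% to 3.25% of all peaks were higher and 0.686% to 2.42% lower. In HOMO the replicate block called 41 higher and 27 lower (12.5% and 9.68% of all peaks) and the covariate 12 and 11 (8.28% and 4.81%). Leaving out 1 library gave 0 to 8 higher (0 without HOMO CC 2) and 0 to 4 lower (0 without HOMO CB 2). Of all peaks 1.94% to 4.72% were higher and 0.993% to 2.09% lower in those fits. The 9 named calls kept their direction in all alternatives and each missed the threshold in 1 to 7 of 12. Gene-end peaks of nearest genes called lower numbered 145 in CB and 110 in CC with same-numbered HOMO and WT libraries of a population as a block. There 6.93% and 4.88% of all peaks were called lower. With the covariate these gene-end peaks numbered 164 and 121 (8.59% and 5.71% of all peaks). Without both WT libraries numbered 2 the counts were 51 and 11 (2.05% and 0.355%). Without both HOMO libraries numbered 1 the CC count was 95 (4.66%). With 1 library left out the counts were 16 to 113 in CB (0.445% to 4.56% of all peaks) and 0 to 70 in CC (0.016% to 3.66%). The difference of effects had 0 calls throughout (0 to 0). The remaining alternatives were chosen after seeing the data. The share at start windows was 13.2% at a fold of 1.2, 6.88% with CB and 7.31% with CC alone, and 9.14% to 10.8% with 1 library left out. The share 1 to 2 kb from a gene end was 17.4% at a fold of 1.7, 14.5% with CB and 15.1% with CC alone, and 19.4% to 22.5% with 1 library left out. Peaks at the 4 B cell lists numbered 1 with TMM factors, 3 at a fold of 1.2, 7 with CB and 10 with CC alone, 9 without both HOMO libraries numbered 1, 1 without both WT libraries numbered 2, and 0 to 3 with 1 library left out. The cause of these shifts was not tested.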
